A study of Mus musculus with 27 samples.

Results

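Mucins are heavily O-glycosylated proteins that cover the epithelium of the stomach. Gel-forming mucins are secreted and make the mucus layer, whereas membrane mucins stay anchored at the apical cell surface. In the stomach the surface (pit) cells are known for Muc5ac and the mucous neck cells for Muc6, while Muc2 is the gel-forming mucin of intestinal goblet cells. The 10 mucin genes described here were chosen by their symbols, from 56691 genes counted in mouse gastric organoids. They are 4 secreted gel-forming mucins (Muc2, Muc5ac, Muc5b and Muc6), 5 membrane mucins (Muc1, Muc4, Muc13, Muc16 and Muc20) and the mucin-like gene Mucl3, which is kept apart. Of these, 9 passed the filter on low counts and were tested among 15115 genes, and Muc6 did not. Muc16 passed through the groups in which it was high, so the 9 genes tested are not all members.

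RNA was sequenced from organoids in 7 groups of 3 libraries. Organoids grown from Mist1+ cells were sampled at passages 5, 10 and 15, from Mist1Cre/ERT2;RFPLSL mice (called wild type, the labels' WT) and from Gpx4F/F;Mist1Cre/ERT2;RFPLSL mice (the labels' Gpx4 KO, called knockout). Organoids grown from Mist1- cells, also labelled WT, were sampled at passage 5. The labels describe a sort of RFP+ cells from dissociated stomach and culture in Matrigel with proliferating medium. The Cre is driven by Mist1, the product of Bhlha15, which marks zymogenic chief cells and other secretory cells. The mice are given as adult. How the Mist1- cells were gated and how the Cre was induced are not given in the sources used here. Another 6 of the 27 libraries, from sorted cells of mice on 2 diets, are not analysed here. Whether the 3 libraries of each group are separate cultures or mice is not stated, so p-values measure only the spread between these libraries.

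The 21 libraries held 13805585 to 19608956 counts in genes. Gpx4, the targeted gene, was at 83.1 to 101 CPM (counts scaled to the TMM-adjusted library total) in the 9 knockout libraries and at 104 to 195 CPM in the 12 others, and a count per gene cannot show which exons remain. The 195 CPM was replicate 1 of wild-type passage 15. In knockout against wild type, Gpx4 was lower at passages 5 (log2 -0.384 ± 0.135, edgeR adjusted p = 0.0362) and 15 (log2 -0.725 ± 0.136, adjusted p = 0.000215). At passage 10 it did not pass (log2 -0.301 ± 0.135, adjusted p = 0.094). Of 6 chief cell genes in the table, Cblif, Pga5, Lipf and Chia1 were under 1 CPM in every group, Pgc was at 1.89 to 32 CPM and Bhlha15 at 2.06 to 12.8 CPM. Of 4 parietal genes, Atp4b, Slc26a7 and Kcne2 were under 1 CPM in every group and Atp4a was at 0.686 to 4.25 CPM. The 3 wild-type passage 15 libraries stood apart from each other. Pairs of them differed by 17.3 to 80 times the sampling noise (chi-square over degrees of freedom), and replicate pairs of the other groups by 1.57 to 2.64 times. Their replicates 1 and 3 held fewer reads of long genes than replicate 2, with a median log2 difference of -0.57 and -0.26 for genes over 8 kb of exon and of 0.45 and 0.19 for genes under 1 kb. This touches the mucin genes directly, since their exonic lengths run from 2346 bases (Muc1) to 26350 bases (Muc16). Most fold changes and counts of calls that use wild-type passage 15 are therefore also given with its replicate 2 alone. Whether replicate 2 itself held fewer reads of long genes than the other groups was not looked at. The tests share 1 estimate of spread per gene over all 7 groups. The SE and p-values of comparisons with wild-type passage 15 can therefore understate its spread. In bulk RNA a smaller number of cells of a type and less RNA per cell cannot be told apart.

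The 4 gel-forming genes lie within 240 kb of chromosome 7 in GENCODE M21 (build GRCm38), in the order Muc6, Muc2, Muc5ac and Muc5b, with gaps of 35020, 34278 and 19838 bases between them. Muc6 (chr7:141633456-141655319) is on the minus strand, and Muc2 (chr7:141690340-141754693), Muc5ac (chr7:141788972-141819231) and Muc5b (chr7:141839070-141873084) are on the plus strand. The membrane mucin Muc1 is at chr3:89229057-89233381 on the plus strand, Muc16 at chr9:18495455-18674530 on the minus strand and Mucl3 at chr17:35635752-35643695 on the minus strand. On chromosome 16, Muc4 (chr16:32735886-32782391, plus strand) and Muc20 (chr16:32777419-32797435, minus strand) overlap at their 3' ends, and Muc13 (chr16:33794037-33819934, plus strand) lies 996.6 kb further on. The overlap of Muc4 and Muc20 includes 627 exonic bases, which are 5.33% of the exonic bases of Muc4 and 15.6% of those of Muc20. The strand setting of the counting is not given in the sources used here, so reads in that stretch cannot be assigned to one of the pair with certainty. Muc20 was the far lower gene of the pair, so its counts are the more uncertain.

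Proximal promoters were read from RefSeq (GRCm38.p6), which held a window of 250 bases before to 50 bases after the start for 8 of the 10 genes. Shown are the windows of the pairs of genes whose levels ran most alike over the 7 groups: Muc1 with Mucl3 (r = 0.89 of log2 CPM over 7 group means), and Muc4 with its overlapping neighbour Muc20 (r = 0.88). These correlations are descriptions over 7 points that share libraries. Wild-type passage 15, whose libraries stood apart from each other, was the lowest group of each of these genes. Muc1 was at 719.5 ± 70.5 CPM there and Mucl3 at 28.3 ± 1.62 CPM. The correlations can therefore rest much on that group, and values without it are not given here. Capitals mark matches, on either strand, to 8 short motifs: TATAAA (the core promoter box, found in 13.6% of 32851 promoters), GGGCGG (GC box, 35.7%), AGATAA (a site of the Gata factors, 11.2%), TGTTTAC (forkhead site, 3.65%), TTTATG (CDX site, 11.9%), TGANTCA (AP-1 site, 7.81%), CCGGAA (ETS core, 14.9%) and TGACNNNGC (antioxidant core, 12.4%). The windows are chr3:89228806-89229105 (plus strand) for Muc1, chr17:35643646-35643945 (minus strand) for Mucl3, chr16:32735636-32735935 (plus strand) for Muc4 and chr16:32797386-32797685 (minus strand) for Muc20.
Muc1: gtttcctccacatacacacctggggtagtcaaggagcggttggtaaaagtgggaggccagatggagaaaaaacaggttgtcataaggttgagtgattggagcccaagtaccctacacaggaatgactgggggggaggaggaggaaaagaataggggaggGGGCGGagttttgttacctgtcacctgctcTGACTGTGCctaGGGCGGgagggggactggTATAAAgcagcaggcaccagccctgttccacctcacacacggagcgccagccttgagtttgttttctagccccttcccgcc
Mucl3: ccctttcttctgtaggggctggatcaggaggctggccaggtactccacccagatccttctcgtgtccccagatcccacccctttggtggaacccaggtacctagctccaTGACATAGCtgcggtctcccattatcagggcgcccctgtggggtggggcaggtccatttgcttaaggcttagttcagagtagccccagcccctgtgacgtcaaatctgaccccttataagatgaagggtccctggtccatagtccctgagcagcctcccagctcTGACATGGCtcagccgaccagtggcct
Muc4: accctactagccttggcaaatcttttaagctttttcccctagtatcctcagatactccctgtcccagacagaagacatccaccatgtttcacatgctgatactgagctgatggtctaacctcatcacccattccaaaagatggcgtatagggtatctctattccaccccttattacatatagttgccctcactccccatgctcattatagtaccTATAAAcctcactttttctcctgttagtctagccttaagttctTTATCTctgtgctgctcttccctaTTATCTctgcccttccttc
Muc20: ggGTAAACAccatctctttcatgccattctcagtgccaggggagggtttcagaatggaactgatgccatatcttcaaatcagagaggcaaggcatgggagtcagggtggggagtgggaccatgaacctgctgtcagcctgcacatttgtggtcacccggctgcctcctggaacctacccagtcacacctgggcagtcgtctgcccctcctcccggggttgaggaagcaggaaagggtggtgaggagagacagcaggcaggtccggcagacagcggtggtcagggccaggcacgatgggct
The Muc1 window held TATAAA at position -31 from the start, GC boxes at -91 and -49 and the antioxidant core at -61. The Mucl3 window held the antioxidant core at -141 and at 23, and none of the other 7 motifs. Muc4 had TATAAA at -36 and the Gata letters at 7 and 31, while Muc20 had 1 match, the forkhead letters at -248. Neither pair shared more than a single motif in these windows, the antioxidant core in Muc1 and Mucl3. A match is a match of letters and says nothing about binding.

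On the FPKM scale, which divides counts by exonic length and library total, Muc1 was the most abundant mucin in every library, with 75.2% to 94.7% of the summed FPKM of the 10 genes. Muc1 (ENSMUSG00000042784), an apical membrane mucin of most epithelia, was also the steadiest of those tested, with a ratio of 1.77 between its highest and lowest group in CPM. Mucl3 was the next highest by group mean in every group but knockout passage 15, where Muc5ac was. Muc5ac was the only gel-forming mucin above 10 FPKM in any library. At the other end, Muc6 had 1 to 15 counts per library and at most 0.06 FPKM. Muc2 was at 4 to 98 counts and at most 0.43 FPKM, and Muc16, a very large membrane mucin, at 0 to 66 counts and at most 0.14 FPKM. All neighbouring groups overlapped in the order of Muc6, and several did in those of Muc2 and Muc16.

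**Figure D1:**
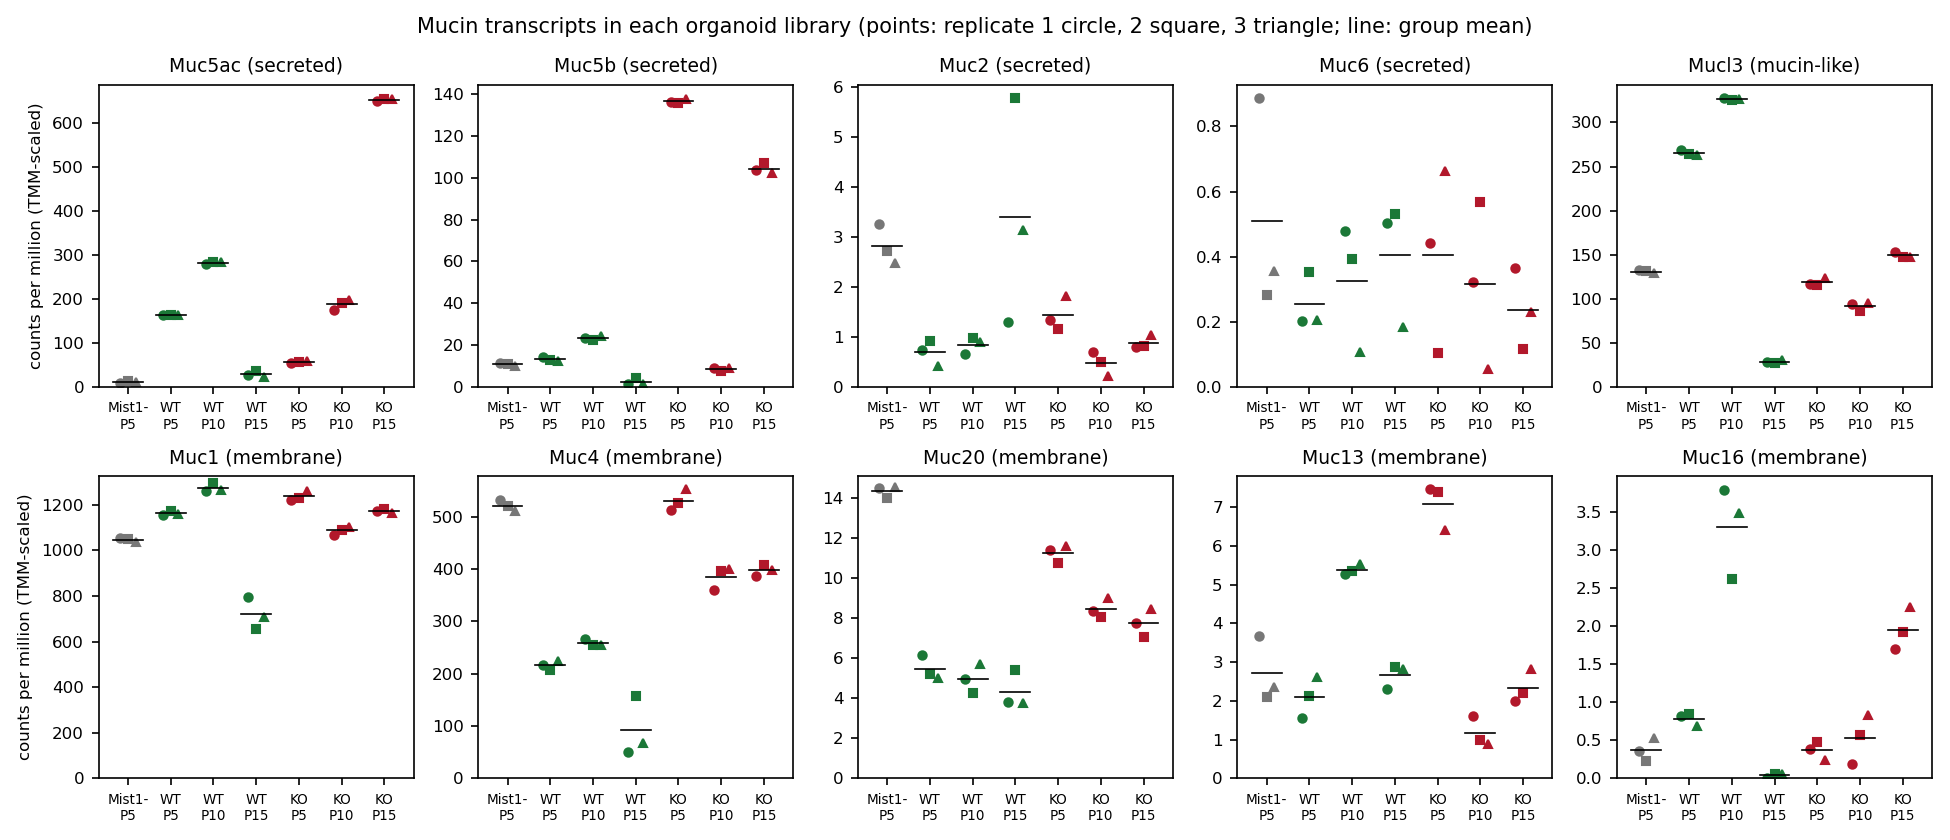
Each panel plots 1 mucin gene, with the TMM-scaled CPM on the y axis (linear, from 0, a scale of its own per panel) and the 7 organoid groups on the x axis (Mist1-, wild type WT and Gpx4 knockout KO at passages P5, P10 and P15). Points are single libraries and lines are means of 3 libraries. Muc5ac is highest in knockout passage 15, Muc5b in knockout passages 5 and 15, and Mucl3 in wild-type passages 5 and 10.

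The secreted share of the mucin transcripts differed widely between the groups. It depended on the scale: on raw counts, which favour the long gel-forming genes, it was 1.44% in Mist1- organoids and 30.49% in knockout passage 15, well above the shares of FPKM that follow. The 4 gel-forming genes made 0.364% ± 0.0237 (SD, n = 3) of the summed mucin FPKM in Mist1- organoids. In wild type they made 2.56% ± 0.0254 at passage 5 and 3.88% ± 0.05 at passage 10. In knockout organoids the share was 2.30% ± 0.00173 at passage 5, 3.29% ± 0.141 at passage 10 and 10.3% ± 0.0656 at passage 15. Wild-type passage 15 had 0.738%, 1.35% and 0.773% in its replicates 1, 2 and 3, with the highest share in the replicate that kept most reads of long genes. The share in knockout passage 15 lay above every other library. In the 6 groups without wild-type passage 15, secreted mucins summed to 1.84 to 69.3 FPKM and membrane mucins to 486 to 595 FPKM.

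Muc5ac and Muc5b made up most of the secreted sum in each group, in proportions that differed between the groups. Muc5ac was 82.5% to 96.8% of secreted FPKM in the 3 wild-type groups and in knockout passages 10 and 15. It was 46.2% to 55.7% in Mist1- organoids and 35.8% to 36.9% in knockout passage 5. The ratio of Muc5b to Muc5ac in FPKM was 1.68 to 1.77 in knockout passage 5, 0.0283 to 0.0371 in knockout passage 10 and 0.112 to 0.117 in knockout passage 15. In wild type it was 0.0552 to 0.0622 at passages 5 and 10 and 0.0418 to 0.081 at passage 15. Mist1- organoids lay between these and knockout passage 5, at 0.61 to 0.846.

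**Figure D2:**
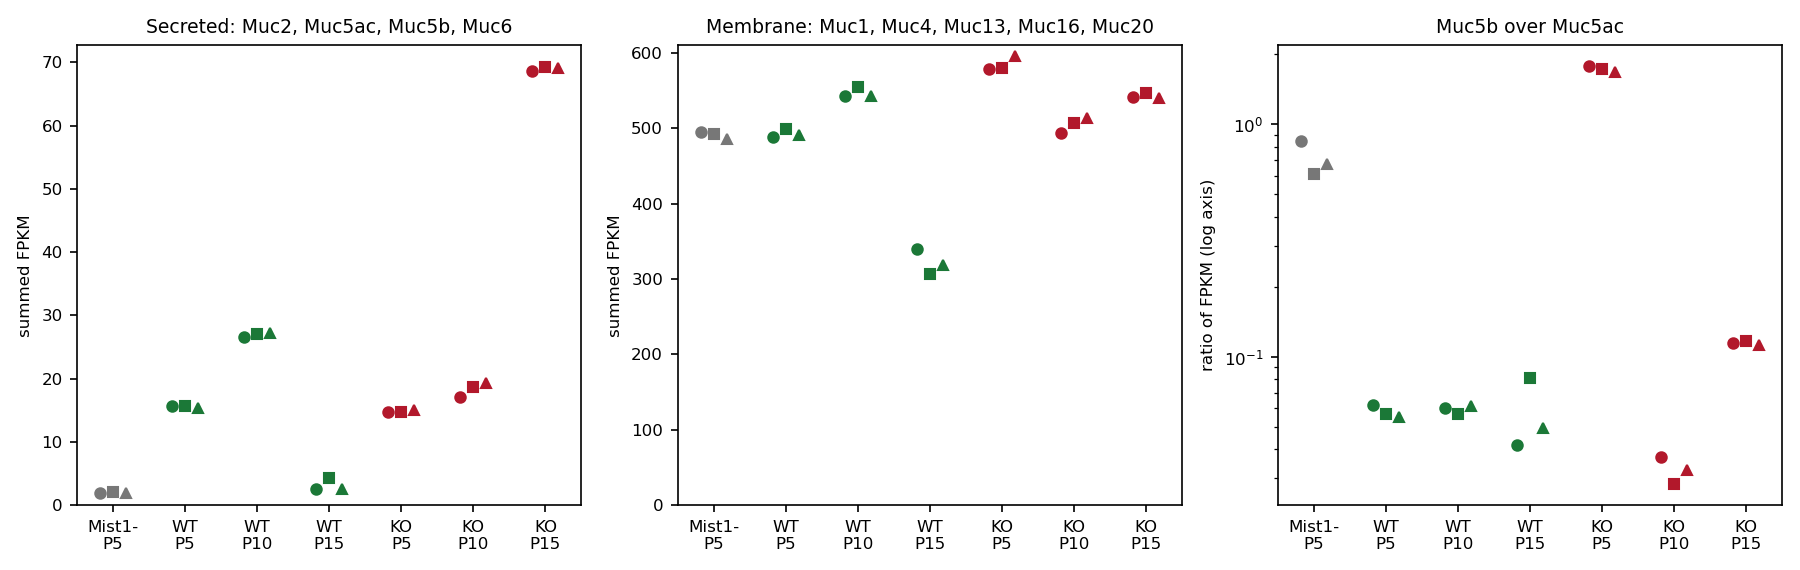
Summed FPKM of the secreted mucins (left), summed FPKM of the membrane mucins (middle) and the ratio of Muc5b to Muc5ac on a log axis (right), with 1 point per library in each of the 7 groups. The secreted sum reaches 68.6 to 69.3 in knockout passage 15, and the ratio is above 1 only in knockout passage 5.

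The labels of the next comparison rest on Mist1, and its gene did not follow them in the cultures: Bhlha15 was at 12.8, 8.61 and 9.76 CPM in the libraries labelled Mist1- and 5.02, 6.21 and 5.28 CPM in those labelled Mist1+ (log2 -0.91 ± 0.14, edgeR adjusted p = 1.89e-05). The labels name the cells from which the organoids were derived. Organoids labelled Mist1+ at passage 5 carried far more Muc5ac and more Mucl3 than those labelled Mist1-, and less Muc4, Muc20 and Muc2. Muc5ac (ENSMUSG00000037974), the gel-forming mucin of gastric surface cells, was at 0.91, 1.18 and 0.98 FPKM in the Mist1- libraries and at 14.6, 14.7 and 14.5 FPKM in the Mist1+ libraries. The groups did not overlap, and edgeR's quasi-likelihood test gave a log2 fold change of 3.90 ± 0.12 (SE, 14.9-fold, adjusted p = 5.52e-16). Mucl3 was at 50.6, 50.3 and 49.2 FPKM against 98.3, 97.5 and 96.5 FPKM (log2 1.02 ± 0.05, adjusted p = 1.05e-12). Of the 9 mucin genes tested 3 rose and 3 fell, where 35% of all genes tested were called (18.8% higher and 16.2% lower).

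Muc4, a membrane mucin known to bind the receptor ErbB2, was at 41.7, 40.8 and 40.0 FPKM in Mist1- and 16.2, 15.6 and 16.7 FPKM in Mist1+ libraries (log2 -1.27 ± 0.23, edgeR adjusted p = 0.000135). Its neighbour Muc20 fell as well, from 3.60, 3.48 and 3.61 FPKM to 1.47, 1.25 and 1.19 FPKM (log2 -1.39 ± 0.13, adjusted p = 1.99e-08). Muc2 fell from 55, 48 and 42 counts to 11, 13 and 6 counts (log2 -2.02 ± 0.44, adjusted p = 0.000951). The libraries of the groups did not overlap for any of these. Muc1 passed with a small difference (log2 0.15 ± 0.05, adjusted p = 0.0375), a call that was lost in each of the 6 fits without 1 of the libraries compared (adjusted p = 0.078 to 0.117). Muc5b (log2 0.30, adjusted p = 0.131), Muc13 (log2 -0.37, adjusted p = 0.246) and Muc16 (log2 1.07, adjusted p = 0.0601) did not pass. Without the wild-type passage 15 libraries in the fit, which then called 52.6% of genes, 5 mucin genes rose and 3 fell, with Muc5b and Muc16 among those that rose.

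The pit marker list, which includes Muc5ac and Mucl3, summed to 725.9 to 755.5 CPM in Mist1- and 5222 to 5365 CPM in Mist1+ libraries, with 0 of its 7 genes under 1 CPM in either group. The mucous neck list summed to 524 to 548 CPM against 353 to 362 CPM, with Muc6 under 1 CPM in both. Most of the Mist1- sum was Tff2 (480 ± 11.3 against 25 ± 1.99 CPM). Without it the list summed to 55.5 to 60.3 CPM in Mist1- and 330 to 338 CPM in Mist1+ libraries. Aqp5 was also higher in Mist1- (36.7 ± 1.06 against 8.26 ± 0.376 CPM). Gkn3 (9.7 ± 0.747 against 278 ± 2.61 CPM) and Cftr (10.7 ± 1.58 against 45.9 ± 2.53 CPM) were lower there, so the list was split. The part of these markers in the mucin differences was not tested.

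Between knockout and wild-type organoids, the mucin genes differed in a way that changed with passage. This question, how loss of Gpx4 bears on organoids over passages, follows from the study's design. The genotypes come from different mice, and the number of mice or cultures behind each group is not stated. Genotype therefore cannot be told apart from mouse or organoid line, nor passage from differences between cultures. Muc5ac was lower in the knockout at passages 5 and 10 and higher at passage 15. Mucl3 moved the same way, Muc5b was higher, lower and higher again, and Muc20 was higher at all 3 passages. All 3 comparisons share the fit, and the genes below are given passage by passage.

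**Figure D3:**
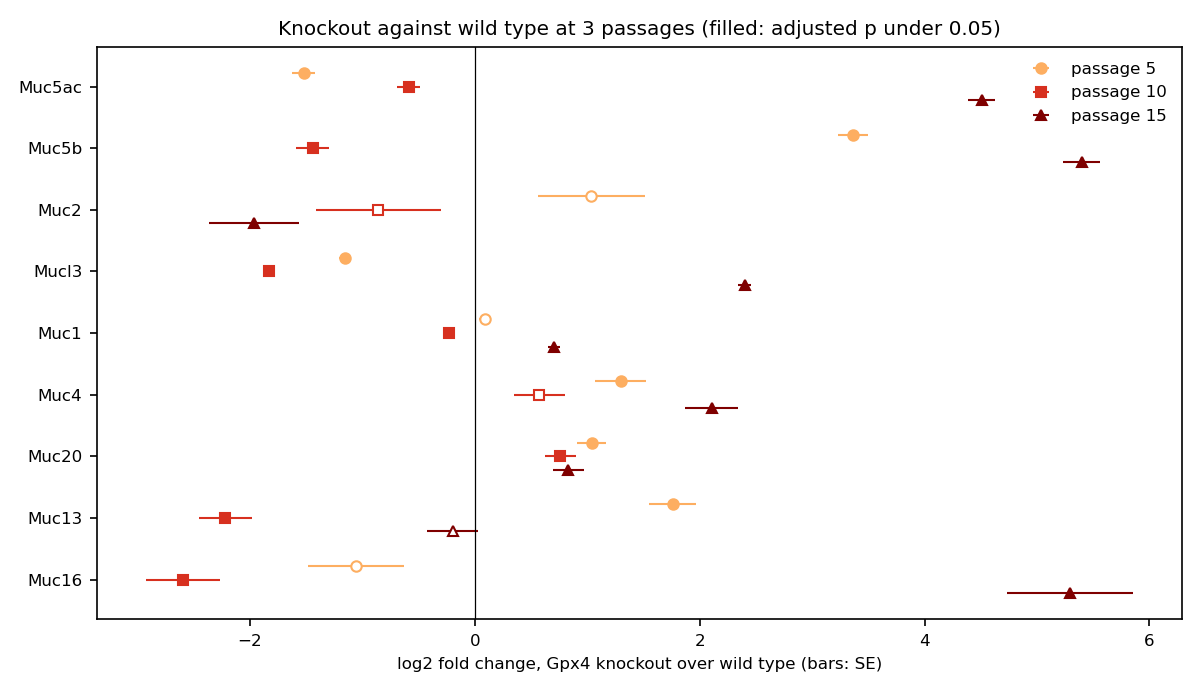
Log2 fold change of knockout over wild type (x axis) for the 9 tested mucin genes (y axis) at passages 5 (circles), 10 (squares) and 15 (triangles), with bars for the SE and filled symbols for an adjusted p under 0.05. Muc20 lies right of 0 at each passage, and Muc5ac and Mucl3 lie left of 0 at passages 5 and 10 and right of it at passage 15.

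At passage 5, Muc5b and Muc5ac moved in opposite directions. Muc5b (ENSMUSG00000066108), a gel-forming mucin best known from airways and salivary glands, was at 9.29, 9.23 and 9.36 FPKM in knockout and 0.91, 0.83 and 0.80 FPKM in wild-type libraries. The groups lay far apart, with a log2 fold change of 3.37 ± 0.13 (10.3-fold, edgeR adjusted p = 6.98e-14). Muc5ac was at 5.25, 5.38 and 5.57 FPKM in knockout libraries, below all 3 wild-type libraries given above (log2 -1.52 ± 0.11, adjusted p = 4.09e-10). The summed secreted FPKM therefore differed little, at 14.7 to 15.1 in knockout and 15.3 to 15.6 in wild type.

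Among the membrane mucins at passage 5, Muc4 rose to 41.0, 42.0 and 44.0 FPKM in the knockout (log2 1.30 ± 0.23, edgeR adjusted p = 0.000151). Muc20 rose to 2.89, 2.72 and 2.93 FPKM (log2 1.04 ± 0.13, adjusted p = 2.5e-06). Muc13, a membrane mucin best known from the intestine, was at 2.51, 2.48 and 2.14 FPKM in knockout and 0.49, 0.67 and 0.82 FPKM in wild type (log2 1.76 ± 0.21, adjusted p = 1.33e-06). For each of these every knockout library was above every wild-type library. Mucl3 fell to 45.9, 45.1 and 48.2 FPKM (log2 -1.16 ± 0.05, adjusted p = 2.92e-13). In all 4 of 9 rose and 2 fell, where 30.1% of genes tested were called (13% higher and 17% lower). Muc1 (log2 0.09, adjusted p = 0.24), Muc2 (log2 1.03, adjusted p = 0.112) and Muc16 (log2 -1.06, adjusted p = 0.067) did not pass. With wild-type passage 15 left out, 47.4% of genes and all 9 mucin genes were called (6 rose and 3 fell).

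At passage 10 the difference in Muc5b was turned around. Muc5b was at 0.61, 0.51 and 0.61 FPKM in knockout and 1.5, 1.44 and 1.57 FPKM in wild type, with no overlap (log2 -1.44 ± 0.15, edgeR adjusted p = 1.36e-07). Muc5ac was at 16.4, 18.1 and 18.7 FPKM against 25.1, 25.5 and 25.5 FPKM (log2 -0.59 ± 0.10, adjusted p = 0.000101). Mucl3 showed its widest gap between genotypes here among the passages with tight replicates, at 36.6, 33.4 and 37.2 FPKM against 121, 120.5 and 121 FPKM (log2 -1.83 ± 0.05, adjusted p = 2.86e-16). Muc13 was turned around as well, at 0.54, 0.33 and 0.29 FPKM against 1.68, 1.70 and 1.76 FPKM (log2 -2.22 ± 0.24, adjusted p = 2.62e-07).

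Muc16 fell from 63, 40 and 66 counts in wild type to 3, 8 and 15 counts in the knockout (log2 -2.60 ± 0.33, adjusted p = 2.69e-06, edgeR). Muc1 was at 463, 473 and 479 FPKM against 519, 533 and 520.01 FPKM, a small difference beyond the spread of the libraries (log2 -0.23 ± 0.05, adjusted p = 0.00269). Muc20 rose (2.10, 2.03 and 2.28 against 1.19, 1.02 and 1.37 FPKM, log2 0.76 ± 0.13, adjusted p = 0.000131). Of 9 mucin genes 1 rose and 6 fell, where 34.4% of genes were called (15.9% higher and 18.5% lower). Muc4, at 28.6, 31.7 and 31.9 against 20.2, 19.3 and 19.3 FPKM, did not pass (log2 0.57 ± 0.22, adjusted p = 0.0535). With the wild-type passage 15 libraries left out, when 52% of genes were called, Muc4 rose too (adjusted p = 1.8e-08), and 2 mucin genes rose and 6 fell. Muc2 did not pass (log2 -0.86, adjusted p = 0.25).

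At passage 15, 7 of 9 mucin genes rose in the knockout against wild type and 1 fell, where 48.9% of genes were called (23.6% higher and 25.3% lower). Muc5ac reached 61.5, 62.0 and 62.1 FPKM in the knockout, and was at 2.39, 3.58 and 2.22 FPKM in wild type (log2 4.51 ± 0.12, edgeR adjusted p = 2.74e-17). With wild-type replicate 2 alone its log2 fold change was 4.14. Muc5b was at 7.05, 7.26 and 6.95 FPKM against 0.10, 0.29 and 0.11 FPKM (log2 5.40 ± 0.17, adjusted p = 4.48e-16), and at log2 4.66 with replicate 2 alone. Both genes are long, and in both wild-type replicate 2 was the highest of its group.

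The shorter genes Mucl3 and Muc1 gave nearly the same fold with replicate 2 alone. Mucl3 was at 59.5, 57.4 and 57.6 FPKM in knockout and 10.7, 10.7 and 11.8 FPKM in wild type (log2 2.40 ± 0.06, edgeR adjusted p = 3.22e-18, and 2.48 with replicate 2 alone). Muc1 was at 508, 511 and 505 FPKM against 335, 291 and 310.49 FPKM (log2 0.71 ± 0.06, adjusted p = 1.51e-09, and 0.84 with replicate 2 alone). Neither gene overlapped between the genotypes.

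Muc4, which is over 8 kb, was at 30.8, 32.5 and 31.8 FPKM in knockout and 3.89, 12.9 and 5.50 FPKM in wild type. Its log2 fold change was 2.11 ± 0.24 (edgeR adjusted p = 3.73e-07) with all libraries and 1.33 with replicate 2 alone, a fold more than 1.5 times smaller. The fold of Muc5b given above was more than 1.5 times smaller with replicate 2 alone as well. Muc20 rose (1.96, 1.78 and 2.14 against 0.93, 1.40 and 0.96 FPKM, log2 0.83 ± 0.14, adjusted p = 5.59e-05, and 0.52 with replicate 2 alone). Muc2 fell, from 18, 98 and 51 counts in wild type to 13, 14 and 18 (log2 -1.97 ± 0.40, adjusted p = 0.000451, and -2.71 with replicate 2 alone). Muc16 had 28, 33 and 39 counts in knockout and 0, 1 and 1 in wild type, a ratio of 46.1 (95% counting interval 12.4 to 386, counting error only, edgeR adjusted p = 1.4e-07). With replicate 2 alone the fitted log2 of Muc16 was 4.88, which depends on the prior count. Muc13 overlapped between the genotypes (log2 -0.20, adjusted p = 0.493, and -0.30 with replicate 2 alone). With replicate 2 alone 7 mucin genes again rose and 1 fell, where 34.5% of genes were called.

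**Figure D4:**
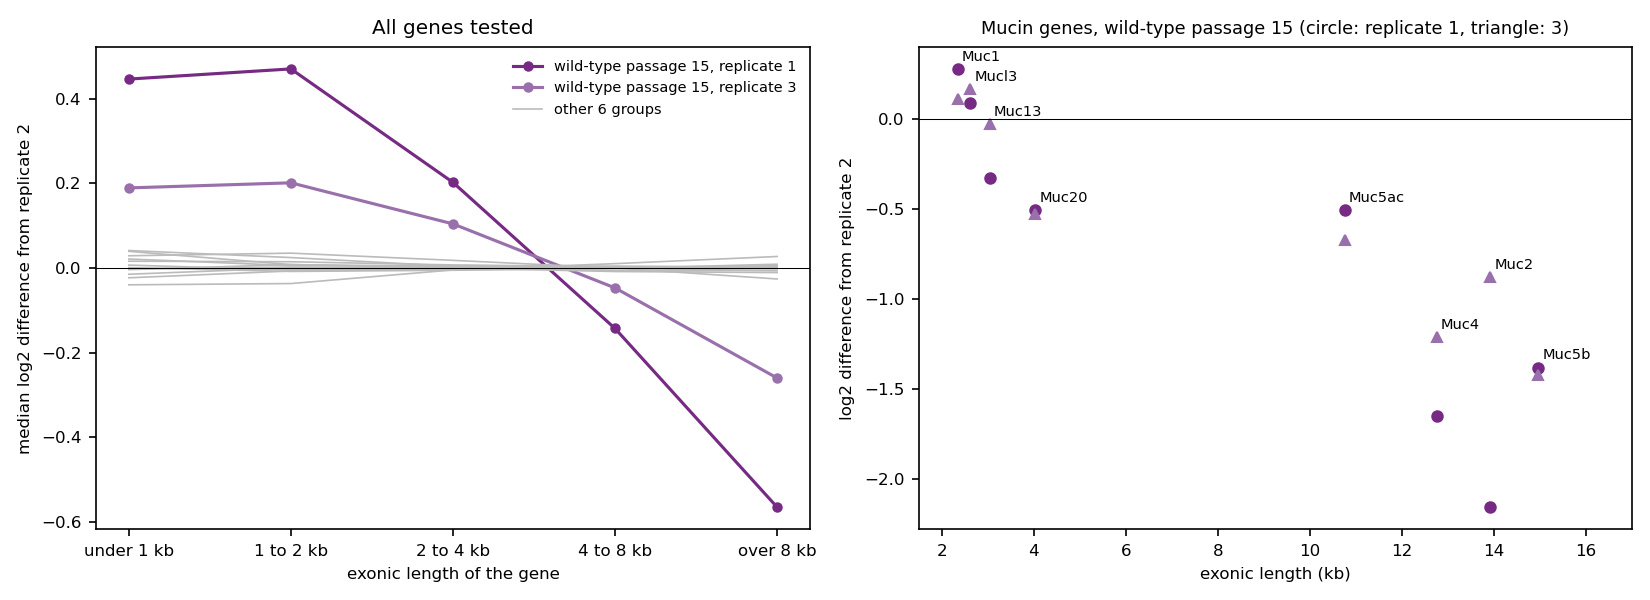
Left, the median log2 difference of each replicate from replicate 2 of its group (y axis) for all tested genes in 5 bins of exonic length (x axis). Right, the same difference for 8 mucin genes of wild-type passage 15 against their exonic length in kb (Muc16, at 0 in 1 library, is left out). Muc1 and Mucl3 lie above 0, and Muc2, Muc4 and Muc5b lie lowest, at -0.88 to -2.16.

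Over passages in wild type, 5 of 9 mucin genes rose from passage 5 to 10 and 0 fell, where 4.88% of genes were called (2.04% higher and 2.84% lower). Muc5ac rose by 0.78 ± 0.10 on the log2 scale (edgeR adjusted p = 3.29e-05), Muc5b by 0.82 ± 0.14 (adjusted p = 0.000736) and Mucl3 by 0.30 ± 0.05 (adjusted p = 0.000605), from the library values given above. Muc13 rose by 1.36 ± 0.22 (adjusted p = 0.000343), and Muc16 rose from 12, 12 and 10 counts to 63, 40 and 66 (log2 2.07 ± 0.31, adjusted p = 0.000193). Each passage 10 library was above each passage 5 library for these 5 genes, and also for Muc1 and Muc4, which were not called. How many of all genes did so was not counted. Muc1 (log2 0.13, adjusted p = 0.228) and Muc4 (log2 0.26, adjusted p = 0.695) did not pass. With wild-type passage 15 left out both rose, so that 7 mucin genes rose, and 18.5% of genes were called. Muc2 (log2 0.29, adjusted p = 0.903) and Muc20 (log2 -0.13, adjusted p = 0.798) overlapped between the passages.

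From passage 10 to 15 in wild type, 7 of 9 mucin genes fell and 1 rose, where 54.2% of genes were called (26.3% higher and 27.9% lower). Mucl3 fell by 3.53 ± 0.06 on the log2 scale (11.5-fold, edgeR adjusted p = 2.95e-20), and its log2 change was -3.61 with replicate 2 alone. Muc5ac had a log2 change of -3.30 ± 0.11 (adjusted p = 1.97e-15, and -2.93 with replicate 2 alone), Muc5b of -3.23 ± 0.18 (adjusted p = 5.87e-12, and -2.50) and Muc1 of -0.82 ± 0.06 (adjusted p = 1.19e-10, and -0.95). Muc4 fell by 1.49 ± 0.23 (adjusted p = 2.31e-05), with a change of -0.71 with replicate 2 alone, and Muc13 fell by 1.00 ± 0.21 (adjusted p = 0.000384), with -0.90 with replicate 2 alone. The changes of Muc4 and Muc5b thus depended on which wild-type passage 15 libraries were used, as did that of Muc2 below. Those of Mucl3 and Muc1 did so far less. Over the alternative fits, by edgeR or DESeq2, the largest adjusted p was 3.58e-05 for Muc5ac, 0.000604 for Muc5b and 0.0276 for Muc4. Muc16 had 169 counts in all at passage 10 and 2 at passage 15, a ratio of 78.1 (95% counting interval 21.3 to 650). Muc2 rose (log2 2.03 ± 0.40, adjusted p = 0.000288, and 2.77 with replicate 2 alone), and Muc20 did not pass (log2 -0.20, adjusted p = 0.259). With replicate 2 alone 7 mucin genes again fell and 1 rose, where 40.4% of genes were called.

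Values of other cell type markers moved with these mucin changes in wild-type passage 15. The pit list summed to 941 to 1568 CPM there and to 7140 to 7394 CPM at passage 10. The intestinal transcription factor Cdx2 was at 32 ± 5.17 CPM (n = 3), against group means of at most 1.19 CPM elsewhere. The goblet and intestinal list as a whole, which includes Cdx2 and Muc2, summed to 259 to 278 CPM against 361 to 373 CPM at passage 10. Most of that sum was Vil1, at 200 ± 4.31 CPM against 337 ± 6.75 CPM at passage 10. Tff3, also of the list, went the other way (14 ± 6.51 against 0.76 ± 0.15 CPM), as did Cdx2 and Muc2. Of the rest of the list, Cdx1 was under 1 CPM in both groups. Spink4, Fcgbp and Fabp2 are not given singly here, so the list was not shown to rise as a set. The sum thus does not give the course of the genes other than Vil1. Their part in the mucin changes was not tested.

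In the knockout, Muc5b fell and rose again over passages while Muc5ac rose at each step. From passage 5 to 10 Muc5b had a log2 change of -3.99 ± 0.14 (15.9-fold, edgeR adjusted p = 3.9e-14), and from passage 10 to 15 of 3.61 ± 0.14 (12.2-fold, adjusted p = 9.93e-14). Muc5ac changed by 1.72 ± 0.11 (adjusted p = 6.76e-10) and then by 1.80 ± 0.10 (adjusted p = 3.84e-11). Muc13 took the course of Muc5b, with -2.61 ± 0.23 (adjusted p = 7.94e-08) and 1.02 ± 0.26 (adjusted p = 0.00896). The second Muc13 change was lost without knockout passage 10 replicate 3 (adjusted p = 0.0671) or without knockout passage 15 replicate 3 (adjusted p = 0.0567).

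Mucl3 fell by 0.37 ± 0.05 from passage 5 to 10 (edgeR adjusted p = 3.95e-05) and rose by 0.70 ± 0.05 from passage 10 to 15 (adjusted p = 2.27e-09). Muc16 rose in the second step, from 3, 8 and 15 counts to 28, 33 and 39 (log2 1.84 ± 0.35, adjusted p = 0.000607). In the first step 1 of 9 mucin genes rose and 5 fell (7.61% of genes called, 3.89% higher and 3.72% lower), and in the second 5 rose and 0 fell (18% of genes called, 8.34% higher and 9.63% lower). The falls of Muc1 (log2 -0.19, adjusted p = 0.0405) and Muc20 (log2 -0.41, adjusted p = 0.0439) in the first step were lost in each fit without 1 of the 6 libraries compared. Without wild-type passage 15 in the fit, 1 rose and 7 fell in the first step (22.2% of genes called) and 6 rose in the second (36.7% of genes called). The 2 steps share the knockout passage 10 libraries, so they are not independent.

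Markers of mucous neck cells did not share 1 course over the knockout passages. Tff2, a trefoil factor, was at 96.4 ± 0.792, 27.2 ± 2.77 and 95.4 ± 2.51 CPM (n = 3 each) at passages 5, 10 and 15, and was lowest at passage 10, as Muc5b was. Without Tff2 the other 4 genes of the list summed to 147 to 151, 138 to 142 and 167 to 172 CPM, with Muc6 under 1 CPM throughout. Among these, Aqp5 was at 25.6 ± 0.265, 51.7 ± 2.57 and 65.9 ± 1.89 CPM. Gkn3, at 100 ± 2.61, 65.2 ± 0.68 and 72.7 ± 1.49 CPM, was lowest at passage 10 as Tff2 was. Cftr, at 23.5 ± 0.315, 22.5 ± 1.6 and 30.6 ± 0.781 CPM, had its lowest mean there too, with overlap between passages 5 and 10. The sum thus hides opposite courses of Aqp5 and Gkn3. The pit list instead summed to 1562 to 1592, 2438 to 2634 and 4861 to 4945 CPM. Their part in the mucin changes was not tested.

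The change from passage 5 to 10 differed between genotypes for 5 of the 9 mucin genes, where 5.93% of genes were called for this interaction (3.13% higher and 2.81% lower), and that from passage 10 to 15 for 7, where 45.3% were called (22.4% higher and 22.9% lower). These were 1 higher and 4 lower in the first step, and 7 higher in the second. In the first step Muc5b had the largest difference among the mucin genes, with a log2 of -4.81 ± 0.20 (edgeR adjusted p = 7.82e-13) for knockout over wild type. Muc5ac had 0.93 ± 0.15 (adjusted p = 0.000234) and Muc13 -3.98 ± 0.32 (adjusted p = 2.65e-08). In the second step Muc5ac had 5.10 ± 0.15 (adjusted p = 3.34e-16) and Mucl3 4.23 ± 0.08 (adjusted p = 8.29e-20), with 4.73 and 4.31 when wild-type passage 15 was replicate 2 alone. On that setting 7 mucin genes were higher and 1, Muc2, was lower (log2 -1.85, adjusted p = 0.00467), where 43.8% of genes were called. Without wild-type passage 15 in the fit the first step gave 1 higher and 6 lower mucin genes, and 20.1% of genes were called.

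Set against Mist1- organoids at passage 5, the knockout organoids had both more Muc5ac and more Muc5b. The log2 fold change was 2.37 ± 0.12 for Muc5ac (edgeR adjusted p = 4.19e-12) and 3.67 ± 0.14 for Muc5b (12.7-fold, adjusted p = 2.77e-14). Muc13 rose (log2 1.39 ± 0.20, adjusted p = 1.64e-05), as did Muc1 by a small amount (log2 0.24 ± 0.05, adjusted p = 0.00251). Muc4 overlapped between these groups (log2 0.02 ± 0.22, adjusted p = 0.957), and Mucl3 did not pass (log2 -0.14 ± 0.05, adjusted p = 0.0646). Muc20 fell (log2 -0.35 ± 0.12, adjusted p = 0.0323), a call lost in each fit without 1 of the 6 libraries compared. Of 9 mucin genes 4 rose and 1 fell, where 21.1% of genes were called (10.2% higher and 10.9% lower). With wild-type passage 15 left out 4 rose and 3 fell, at 39.9% of genes. This comparison shares its libraries with those of Mist1+ against Mist1- and of knockout against wild type at passage 5.

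The order of the groups differed from gene to gene. In CPM, Muc5ac ran from knockout passage 15 (654 ± 3.12) over wild-type passage 10 (282 ± 2.91), knockout passage 10 (187.5 ± 12.2), wild-type passage 5 (164 ± 1.04), knockout passage 5 (57 ± 1.89) and wild-type passage 15 (28.7 ± 7.29) to Mist1- (11.0 ± 1.46), and no neighbours in this order overlapped. The highest group was 59.5 times the lowest. Muc5b spanned 56.5-fold, from 136.5 ± 1.15 CPM in knockout passage 5 to 2.42 ± 1.48 CPM in wild-type passage 15, again with no overlap between neighbours. Muc4 spanned 5.76-fold, and knockout passage 5 overlapped Mist1- at the top (530.0 ± 20.7 and 521 ± 10.4 CPM), as did knockout passages 15 and 10 in the middle. Muc20 spanned 3.31-fold with the 4 highest groups Mist1- and the 3 knockout groups, and the 3 wild-type groups at the bottom overlapped each other in turn. For Muc13, knockout passage 5 (7.09 ± 0.598 CPM) and wild-type passage 10 (5.39 ± 0.139 CPM) stood above the rest, and the other 5 groups overlapped in turn.

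Genes with the most similar course over the 7 group means were found among all genes tested, as a description over 7 points. Parp9 was most like Muc5ac (r = 0.996), with 10 genes of 15114 at or above 0.95. Slc35b4 (r = 0.971) and Pgm3 (r = 0.968) were most like Muc5b, with 5 genes at or above 0.95. Fbxo47 was most like Mucl3 (r = 0.995, 180 genes at or above 0.95), and Wrn most like Muc1 (r = 0.994, 114 genes). For Muc4 it was Rnf19a (r = 0.996, 122 genes), for Muc20 R3hdm1 (r = 0.991, 52 genes) and for Muc2 H2-D1 (r = 0.992, 8 genes). Muc13 had no gene at or above 0.95, and its closest was Nudt6 (r = 0.920).

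Beside the members stand 4 lists of genes around mucins. Of 12 other mucin-type genes, Cd164, Parm1 and Ovgp1 were tested, and 0 of these 3 were called in Mist1+ against Mist1- or in knockout against wild type at passage 5. Parm1 fell in the knockout at passage 10 (log2 -0.19 ± 0.07, edgeR adjusted p = 0.0347). At passage 15 Cd164 (log2 0.33 ± 0.06, adjusted p = 7.55e-05, and 0.26 with replicate 2 alone) and Parm1 (log2 0.60 ± 0.07, adjusted p = 3.71e-07, and 0.40) rose, and in wild type both fell from passage 10 to 15. Of 25 tested genes of mucin O-glycosylation, 14 rose and 3 fell in Mist1+ against Mist1- organoids (median log2 0.20), where 18.8% of all genes were higher and 16.2% lower. They included the sulfotransferase Chst4 (log2 4.02 ± 0.20), the fucosyltransferase Fut4 (log2 1.57 ± 0.11) and the branching enzyme Gcnt3 (log2 0.63 ± 0.05), with adjusted p of 1.15e-12, 2.9e-10 and 1.62e-09 in edgeR's test.

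In knockout against wild type the O-glycosylation list had 3 rising and 11 falling genes at passage 5 (median log2 -0.18), 3 and 12 at passage 10 (median -0.19), and 11 and 3 at passage 15 (median 0.17). Over all genes 30.1%, 34.4% and 48.9% were called at these passages, so the 14 of 25 called at passage 15 are near the background in number. By direction they were 11 higher and 3 lower, where 23.6% of all genes were higher and 25.3% lower. With replicate 2 alone 12 of 26 rose and 3 fell at passage 15 (34.5% of genes called). The acetylglucosaminyltransferase B3gnt7 was higher in the knockout at each passage. It was at 33.1 ± 2.46, 27.2 ± 0.701 and 37.5 ± 1.45 CPM in knockout, and at 3.70 ± 0.307, 4.87 ± 1.36 and 1.61 ± 0.218 CPM in wild type at passages 5, 10 and 15. Gcnt3 fell at passage 5 (log2 -0.86 ± 0.05) and passage 10 (log2 -0.75 ± 0.05). Fut4 fell at passage 5 (log2 -0.99 ± 0.11), and Fut2, another fucosyltransferase, fell at passage 10 (log2 -0.73 ± 0.05).

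Of 20 tested genes of folding, packing and mucus partners, 9 rose and 5 fell in Mist1+ against Mist1- (median log2 0.24), where 35% of all genes were called. In knockout against wild type 5 rose and 8 fell at passage 5, 3 and 12 at passage 10, and 14 and 2 at passage 15 (13 and 2 with replicate 2 alone). The shares over all genes were 30.1%, 34.4% and 48.9% (34.5% with replicate 2 alone). Clca1, a secreted protease of mucus, had the smallest adjusted p of the list in each of these 4 comparisons. It was at 37.3 ± 2.94 CPM in Mist1- organoids, at 2190.0 ± 7.74, 3255 ± 21.5 and 1032 ± 43.2 CPM in wild type and at 243 ± 3.35, 781 ± 7.7 and 2838 ± 0.753 CPM in knockout at passages 5, 10 and 15. The gastrokine Gkn2 fell at passage 5 (log2 -2.35 ± 0.09) and passage 10 (log2 -1.77 ± 0.09) and rose at passage 15 (log2 2.46 ± 0.09, and 2.77 with replicate 2 alone).

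Of 28 tested transcription factors linked to mucin genes, 7 rose and 12 fell in Mist1+ against Mist1-, where 35% of all genes were called. In knockout against wild type 6 rose and 8 fell at passage 5, 5 and 14 at passage 10, and 16 and 7 at passage 15 (14 and 8 with replicate 2 alone), beside 30.1%, 34.4% and 48.9% (34.5%) of all genes called. Sox9 rose in Mist1+ organoids (log2 2.39 ± 0.06) and fell in the knockout at passages 5 (log2 -1.70 ± 0.05) and 10 (log2 -1.38 ± 0.05). Gata5 did likewise, with log2 1.31 ± 0.06, -0.90 ± 0.06 and -0.68 ± 0.06. The homeobox gene Pitx1 was at 39.7 ± 1.97 CPM in Mist1- and at 27.2 ± 1.12, 12.5 ± 2.04 and 28.2 ± 0.738 CPM in knockout at passages 5, 10 and 15, and at 3, 1 and 0 counts in all in the 3 wild-type groups. Creb3l1, a factor of secretory cells, rose in the knockout at passage 15 (log2 2.2 ± 0.06, and 2.15 with replicate 2 alone), and so did Gata6 (log2 4.56 ± 0.18, and 5.88). Each transcription factor call named here had an adjusted p of at most 1.61e-08.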

How the data were processed

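Per the submitters' processing notes, reads were handled with cutadapt 1.9.1, HISAT2 2.2.1 and HTSeq 0.6.1 on GRCm38.p5. The authors deposited a raw read count per gene and library and an FPKM value, which equalled the count over exonic length and library total within 0.005. The strand setting is not given in the sources used here. The gene coordinates in the deposited table were not those of GRCm38, so positions were taken from GENCODE M21 (8 of 10 gene IDs were the same, and Muc4 and Muc6 were matched by symbol).

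Libraries were grouped by their labels. Counts were tested with edgeR 4.0.16 (R 4.3.3, quasi-likelihood, TMM scaling, filterByExpr with a minimum count of 10 and total of 15) in 1 model of 21 libraries, and adjusted by Benjamini-Hochberg over 15115 genes at 0.05. Log2 fold changes carry their SE, and groups their SD. Every adjusted p in the text is from this test unless said otherwise. Totals of 13805585 to 19608956 counts leave genes with few counts, such as Muc2 and Muc16, imprecise. The procedure was run on simulated data in which all libraries had the same spread. Unequal spread, as in wild-type passage 15, was not simulated. Alternatives were DESeq2 1.42.0, other size factors, no filter, only the groups compared, a replicate block, single libraries left out, wild-type passage 15 left out or by replicate 2 alone (the lone library is then assumed to vary like the other groups) and, chosen after seeing the data, a length offset and the lists by replicate 2 alone.

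All members are named. From each list the 3 genes with the smallest adjusted p were eligible to be named. The genes most alike in pattern are those with the highest r, leaving out unnamed gene models, an exception added after seeing the data. The members, lists and motifs were chosen with earlier results of these data known.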

Additional observations from a re-analysis of the deposited data

Results flagged for a closer look

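The effect of passage differed between knockout and wild type for 12 combinations of mucin gene and passage step, each by edgeR's interaction test. Of 9 mucin genes tested, 5 were called for passage 10 against 5, where 5.93% of all genes were. For passage 15 against 10, 7 were called, where 45.3% of all genes were. Values are log2 differences, knockout minus wild type. From passage 5 to 10 they were -0.318 for Muc1 (adjusted p = 0.0143), 0.934 for Muc5ac (adjusted p = 0.000234), -4.81 for Muc5b (adjusted p = 7.82e-13), -3.98 for Muc13 (adjusted p = 2.65e-08) and -0.674 for Mucl3 (adjusted p = 2.09e-06).

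From passage 10 to 15 they were 0.933 for Muc1 (adjusted p = 5.56e-09), 1.53 for Muc4 (adjusted p = 0.00063), 5.1 for Muc5ac (adjusted p = 3.34e-16), 6.84 for Muc5b (adjusted p = 1.6e-15), 2.02 for Muc13 (adjusted p = 5.24e-05) and 4.23 for Mucl3 (adjusted p = 8.29e-20). Muc16 had a fitted value of 7.89 (adjusted p = 3.49e-09), which rests on 2 counts in wild-type passage 15 and depends on the prior count. With replicate 2 alone for wild-type passage 15, the values were 1.065 for Muc1, 0.76 for Muc4, 4.73 for Muc5ac, 6.10 for Muc5b, 1.92 for Muc13, 7.48 for Muc16 and 4.31 for Mucl3.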

How the results depend on the processing

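Of 702 values with a single library left out, 664 kept their direction and call, 26 lost and 3 gained a call and 9 turned. The turned values were not called and lay near 0. Over the fits without a library, Muc16 in knockout against Mist1- ran from -0.2516 to 0.349, Muc20 in the interaction at passage 15 against 10 from -0.04386 to 0.2742, Muc4 in knockout against Mist1- from -0.006137 to 0.04988 and Muc4 in knockout passage 15 against 10 from -0.001656 to 0.07538. With replicate 2 alone for wild-type passage 15, Muc20 turned to -0.2439 in that interaction and to 0.1164 in wild type passage 15 against 10.

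Same-numbered libraries had correlations of deviations of -0.0361 to 0.0947 over 63 pairs, and differently numbered ones of -0.112 to 0.123 over 126 pairs. The numbers thus showed no strong shared effect. Whether same-numbered libraries share a mouse or culture is not stated. A replicate block changed the count of mucin genes called only in knockout passage 10 against 5, from 6 to 4, where Muc1 (adjusted p = 0.054) and Muc20 (adjusted p = 0.0565) no longer passed.

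The secreted share from raw counts in place of FPKM was 1.44% in Mist1-, 9.735%, 14.08% and 3.95% in wild type at passages 5, 10 and 15, and 9.301%, 11.11% and 30.49% in knockout. With Mucl3 left out of the sum it was 0.4009% in Mist1-, 3.052% and 4.696% in wild type at passages 5 and 10, and 2.472%, 3.51% and 11.28% in knockout.

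DESeq2 changed 3 of 99 calls, other size factors 1, no filter 11, a length offset 10 and a fit of only the groups compared 13 of 97. Leaving out wild-type passage 15 raised the genes called from 738 to 2766 in wild type passage 10 against 5, from 1150 to 3330 and from 2717 to 5502 in the knockout steps, from 897 to 3018 in the first interaction, from 3182 to 5972 in knockout against Mist1- and from 4547 to 7095 in knockout against wild type at passage 5. Fits of only the groups compared called 2735 in place of 7396 genes in knockout against wild type at passage 15, and 3972 in place of 8196 in wild type passage 15 against 10. The cause was not tested.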
